A study of Mus musculus with 8 samples.

Results

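The genes described here are the Runx transcription factors with their partner Cbfb and the corepressor family named after ETO. They were chosen by name and compared between stem-cell-enriched and lineage-positive bone marrow. The list holds 7 genes, of which Runx1, Runx3, Cbfb, Cbfa2t2, Cbfa2t3 and Runx1t1 were analysed among 24011 named genes. Runx2 was not analysed here, because the table of probe names used for the arrays does not list its row, so counts below are over 6 of the 7 genes. All samples were sorted bone marrow cells of adult mice of the strain C57Bl6, with no transgene or treatment given. Lin+ cells, which carry surface markers of maturing blood lineages, were hybridised to 4 arrays. The other 4 arrays held HSC-enriched cells, a small sorted fraction with a high share of haematopoietic stem cells (HSCs). The sample labels give them as LSKCD105+CD48neg, that is lineage-negative, Sca-1-positive, Kit-positive cells with CD105 and without CD48, while the design text of the series has CD150 instead of CD105. Nothing says that the arrays came from separate animals or whether animals were pooled, so the p-values cover only the variation among these 8 samples, part of which may be technical.

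Runx proteins bind DNA through the Runt domain and do so tightly only as a dimer with Cbfb, which itself does not contact DNA and protects its partner from degradation. Runx1 is needed for the first stem cells to arise in the embryo and for platelet and lymphoid cell formation in the adult, Runx2 directs bone formation, and Runx3 acts in cytotoxic T cells and natural killer (NK) cells. The ETO family (Runx1t1, also called ETO; Cbfa2t2, also called MTGR1; Cbfa2t3, also called ETO2) consists of nuclear corepressors without DNA binding of their own, and the fusion of RUNX1 with ETO is a recurrent driver of acute myeloid leukaemia.

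Promoter sequence was set beside these genes first, since the Runx genes are known to be started from an upstream and a downstream promoter. RefSeq (GRCm38.p6) gave 8 windows, each from 250 bases before to 50 after a transcript start, for 5 of the 6 analysed genes, and none for Runx1t1. The core Runx motif TGTGGT (searched on both strands, so also as ACCACA) was present in 16.8% of all 32851 windows. Among the 8 windows it occurred only in the upstream ones of Runx1 and Runx3, with 2 matches in each, against 1.81% of all windows with 2 or more. In both windows the matches were the same 15 letters, AACCACAGAACCACA, a tandem of 2 Runx motifs. The tandem, searched on both strands as AACCACANAACCACA and thus overlapping the core motif, was found in 5 of 32851 windows (0.0152%), those of Runx1, Runx3, Runx2, Gm16225 and Olfr24. The stretches are shown because they are what the Runx promoters share, with the tandem in capitals.

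Runx1 upstream start, chr16:92826025-92826054, minus strand: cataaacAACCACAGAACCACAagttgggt
Runx3 upstream start, chr4:135120503-135120532, plus strand: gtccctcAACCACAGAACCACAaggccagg

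In Runx1 the tandem begins at base 28 of the transcript, in Runx3 at base -135, before the start. The upstream and downstream windows also differed in CG dinucleotides, the sites of DNA methylation, with 2 against 35 in Runx1, 8 against 45 in Runx3 and 10 against 53 in Cbfa2t3, where the median over all windows was 7. The single windows of Cbfb and Cbfa2t2 held 30 and 51. The ETS motif CGGAAG, present in 16.9% of all windows, was matched 2 times in Cbfa2t2 and in no other of the 8, and the GATA motif AGATAA (11.2% of all windows) in none. For Runx1 the 250 bases before each start show the contrast, with every CG in capitals.

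Runx1 before the upstream start, chr16:92826075-92826324, minus strand: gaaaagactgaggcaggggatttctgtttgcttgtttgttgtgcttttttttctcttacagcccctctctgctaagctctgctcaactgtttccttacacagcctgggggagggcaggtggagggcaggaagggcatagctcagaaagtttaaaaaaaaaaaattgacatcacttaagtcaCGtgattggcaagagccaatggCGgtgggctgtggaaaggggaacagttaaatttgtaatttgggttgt
Runx1 before the downstream start, chr16:92697330-92697579, minus strand: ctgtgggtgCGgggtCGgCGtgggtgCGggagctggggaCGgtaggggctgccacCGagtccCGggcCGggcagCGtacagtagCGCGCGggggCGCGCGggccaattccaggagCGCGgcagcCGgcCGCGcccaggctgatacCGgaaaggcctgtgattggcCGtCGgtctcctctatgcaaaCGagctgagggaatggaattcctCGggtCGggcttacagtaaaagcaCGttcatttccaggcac

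The array gives 1 value per gene, so transcripts from the 2 starts could not be separated, and these matches describe letters only.

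The values are log2 levels after RMA, a standard array normalization, with array medians from 5.22 to 5.33. Arrays of 1 group correlated at 0.978 or more across genes (genes are no replicates) and arrays of different groups at 0.893 to 0.922. A guide to background was the 95th percentile of 1074 olfactory receptor genes, 5.10. All 9 measured HSC markers were higher in HSC-enriched cells, among them Kit at 10.44 ± 0.07 against 7.24 ± 0.24 (SD, n = 4). Kit was part of the sort, as was Eng (CD105) by the sample labels or Slamf1 (CD150) by the design text. With Lin+ cells as the only comparison, these markers do not tell stem cells from other lineage-negative cells. HSC-enriched replicates 3 and 4 stood apart in neutrophil markers, whose 14 genes averaged 8.83 and 8.64 there, 6.65 and 6.60 on replicates 1 and 2 and 11.23 to 11.53 on Lin+ arrays. Replicate 3 alone stood apart in B cell markers, at 6.48 against 4.84 to 5.03. Results below that change without those 2 arrays are given with that value.

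Of the 6 analysed genes, 5 were higher in HSC-enriched cells, none was lower and Cbfb did not pass (limma, Benjamini-Hochberg adjusted p under 0.05). Among all 24011 genes 15.5% were called higher and 12.4% lower by the same test. The median difference of the 6 genes was 0.64 (log2), against 0.02 over all genes, and none reached 2-fold, which 4.80% of all genes did in the upward direction with a call. In 4 of the 6, Runx1, Runx3, Cbfa2t3 and Runx1t1, every HSC-enriched array lay above every Lin+ array, which was so for 15.9% of all genes. In bulk samples a higher level in more cells and more RNA per cell cannot be told apart, and Lin+ cells are a mixture of lineages.

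Runx1 (Entrez gene 12394), the DNA-binding subunit used by blood stem cells, read 9.17, 9.27, 9.21 and 8.96 on Lin+ replicates 1 to 4 and 9.74, 9.98, 9.90 and 9.95 on HSC-enriched replicates 1 to 4. The groups were 0.47 apart at their nearest arrays, and both lay far above the guide to background. The difference was 0.74 ± 0.11 (log2, SE), a 1.67-fold rise with a 95% interval of 1.41 to 1.98 (limma, adjusted p = 0.00047). Larger rises were found in 1974 genes, or 8.22% of those tested. The HSC markers, for scale, had a median difference of 2.99.

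Runx3 (12399) read 7.20, 7.71, 7.48 and 7.55 on the Lin+ arrays and 7.80, 8.05, 7.93 and 7.82 on the HSC-enriched ones. The groups did not overlap but were only 0.08 apart, between Lin+ replicate 2 and HSC-enriched replicate 1. The difference was 0.41 ± 0.13, or 1.33-fold (95% interval 1.10 to 1.62, limma adjusted p = 0.033). The call was lost with each array centred on its median (0.40, adjusted p = 0.064), without HSC-enriched replicates 3 and 4 (0.44, adjusted p = 0.11) and in 5 of 8 fits with 1 array left out: Lin+ replicate 1 (0.32, adjusted p = 0.074), 3 (0.41, 0.069) or 4 (0.44, 0.053), or HSC-enriched replicate 2 (0.36, 0.094) or 3 (0.40, 0.076). T and NK cell markers, the cells in which Runx3 is best known, moved the opposite way: all 11 measured were lower in HSC-enriched cells, with means of 4.67 to 4.97 against 7.34 to 7.59 and 8 of 11 at or under the guide in HSC-enriched cells.

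Cbfb (12400), the partner shared by all Runx proteins, read 8.84, 8.68, 8.61 and 8.92 on the Lin+ arrays and 8.90, 8.74, 8.91 and 8.81 on the HSC-enriched ones. The 2 ranges overlapped almost entirely. The difference was 0.08 ± 0.11 (limma, adjusted p = 0.68). Its 95% interval ran from 0.897-fold to 1.24-fold, so a change within that range was not excluded with 4 arrays a group.

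**Figure D1:**
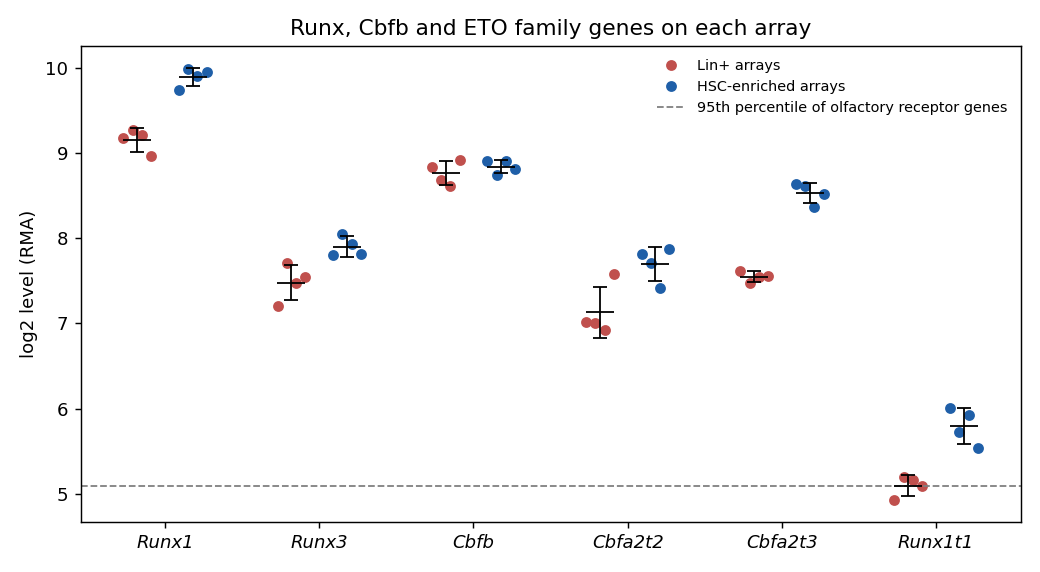
Log2 level (RMA, vertical axis) of each gene on the 4 Lin+ (red) and 4 HSC-enriched (blue) arrays, with group mean and SD in black; the dashed line is the guide to background at 5.10. Runx1, Runx3, Cbfa2t3 and Runx1t1 have no overlap between the groups, Cbfb and Cbfa2t2 do, and Runx1t1 lies near the line on Lin+ arrays.

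The ETO family was higher in all 3 members. Cbfa2t3 (12398), a corepressor that works in complexes with Tal1 and Lmo2 in erythroid and megakaryocytic cells, read 7.61, 7.47, 7.55 and 7.56 on the Lin+ arrays. On the HSC-enriched arrays it read 8.64, 8.61, 8.37 and 8.52, so the groups were 0.76 apart, the widest gap of the 6 genes. The difference was 0.99 ± 0.10, or 1.98-fold (95% interval 1.70 to 2.31, limma adjusted p = 3.6e-05), and 4.99% of all genes had a larger rise. Erythroid markers went down beside it: all 8 measured were lower, with means of 5.60 to 6.57 in HSC-enriched and 8.54 to 9.24 in Lin+ cells. Megakaryocyte and platelet markers went up, in 6 of 8 with 0 lower, with means of 6.97 to 7.46 against 5.75 to 6.35; the part of either cell type in the Cbfa2t3 value was not tested.

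Runx1t1 (12395), the family member fused to RUNX1 in leukaemia, read 4.93, 5.20, 5.17 and 5.10 on the Lin+ arrays and 6.01, 5.73, 5.93 and 5.54 on the HSC-enriched ones. The Lin+ values lay close to the guide to background of 5.10, while every HSC-enriched array was above. The difference was 0.70 ± 0.13, or 1.63-fold (95% interval 1.34 to 1.98, limma adjusted p = 0.0018). Because the Lin+ mean of 5.10 is at background, this fold rests on a value that may not measure the transcript.

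Cbfa2t2 (12396), a corepressor of the same family with known roles in epithelial and germ cells, read 7.02, 7.01, 6.92 and 7.58 on the Lin+ arrays and 7.82, 7.71, 7.42 and 7.87 on the HSC-enriched ones. Lin+ replicate 4 stood above the other 3 Lin+ arrays and above HSC-enriched replicate 3, the only overlap. The difference was 0.57 ± 0.16, or 1.49-fold (95% interval 1.16 to 1.92, limma adjusted p = 0.024). The call was lost in 6 of the 8 fits with 1 array left out: Lin+ replicate 1 (0.54, adjusted p = 0.059), 2 (0.53, 0.066) or 3 (0.50, 0.069), or HSC-enriched replicate 1 (0.54, 0.062), 2 (0.57, 0.054) or 4 (0.52, 0.061). Without Lin+ replicate 4 the difference was 0.72 (adjusted p = 0.0031).

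**Figure D2:**
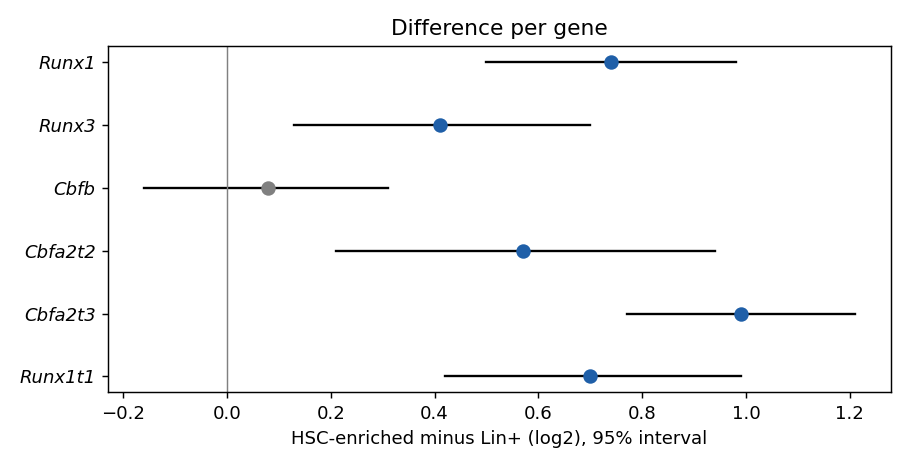
Difference between HSC-enriched and Lin+ means (log2, horizontal axis) for each gene, with limma's 95% interval as a line; blue points passed at an adjusted p of 0.05 and the grey point, Cbfb, did not. Cbfa2t3 is farthest to the right at 0.99 and Cbfb sits at 0.08 with an interval across 0.

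Whether relatives differed in their change was tested on the within-array difference of 2 genes, for the 4 pairs among the analysed relatives. The ratio of Cbfa2t2 to Cbfa2t3 shifted by -0.41, with values of -0.63 to 0.02 on Lin+ and -0.95 to -0.66 on HSC-enriched arrays. That gave p = 0.0286 in a two-sided exact permutation test, the smallest value 4 against 4 arrays allow, and 0.114 after Benjamini-Hochberg adjustment over the 4 pairs. Runx1 against Runx3 differed by 0.33 (exact p = 0.114, adjusted 0.19), Cbfa2t3 against Runx1t1 by 0.28 (exact p = 0.143, adjusted 0.19) and Cbfa2t2 against Runx1t1 by -0.13 (exact p = 0.571, adjusted 0.571). A single pair at the smallest possible p could not pass after this adjustment, so these tests do not show that relatives changed alike.

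For proteins that Runx factors recruit to repress genes, 10 of 14 genes had no call. That is close to the share over all genes, of which 27.8% were called in either direction. Of 14 measured co-repressor genes 3 rose (21.4%, against 15.5% of all genes) and 1 fell (7.14%, against 12.4%). The median was 0.29 against 0.02 over all genes. The Groucho-type corepressor genes Tle2 and Tle3 moved apart. Tle2 was 6.06, 5.89, 5.45 and 5.91 on Lin+ and 6.83, 6.66, 7.02 and 7.36 on HSC-enriched arrays, a 2.21-fold rise (limma, adjusted p = 0.00064). Tle3 was 8.76, 8.94, 8.96 and 8.68 on Lin+ and 7.64, 7.78, 7.86 and 7.50 on HSC-enriched arrays, a 2.20-fold fall (limma, adjusted p = 4.3e-05). For both genes the groups were separate. The histone deacetylase genes Hdac2 and Hdac3 rose 1.66-fold and 1.46-fold (limma, adjusted p = 0.00088 and 0.0078). Hdac1 (0.34, adjusted p = 0.094) and Tle5 (0.31, adjusted p = 0.14) did not pass. Hdac1 passed with quantile normalization (0.43, adjusted p = 0.045) and without Lin+ replicate 1 (0.43, 0.035) or HSC-enriched replicate 1 (0.43, 0.038), and Tle5 without Lin+ replicate 3 (0.43, 0.033). The 3 rising genes became 5 with quantile normalization, with the filters at the median and the 40th percentile, and without Lin+ replicate 3.

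Co-activators and enzymes that modify Runx1 split, with 5 of 18 higher (27.8%), 3 lower (16.7%) and 10 not passing (median 0.15). Over all genes 15.5% were called higher and 12.4% lower. Kmt2a, a histone methyltransferase that binds Runx1, was 8.63, 8.29, 8.11 and 8.60 on Lin+ and 9.12, 9.19, 9.21 and 9.09 on HSC-enriched arrays, a 1.68-fold rise with no overlap (limma, adjusted p = 0.0016). The kinase gene Cdk6 and the arginine methyltransferase gene Prmt1 rose 1.62-fold and 1.57-fold. Cdc20 and Fzr1, activators of the ubiquitin ligase that drives exit from mitosis and degrades Runx1, fell 1.74-fold and 1.90-fold. The acetyltransferase gene Ep300 fell by 0.32 (limma, adjusted p = 0.041), a call that ended under the replicate block, under quantile normalization (-0.24, adjusted p = 0.14), with HSC-enriched replicates 3 and 4 removed (-0.39, adjusted p = 0.077) and without any single array other than Lin+ replicate 2 (adjusted p = 0.051 to 0.11). Its relative Crebbp (0.10) and the kinase gene Pim1 (-0.38) did not pass.

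Partners of Runx1, all DNA-binding factors but the bridging protein Lmo2, moved in both directions. Of 16, 7 were higher (43.8%), 6 were lower (37.5%) and 3 did not pass. The shares over all genes were 15.5% and 12.4%. Gata2, a zinc finger factor of stem cells, was 5.70, 6.35, 6.89 and 6.24 on Lin+ and 9.67, 9.72, 9.45 and 9.40 on HSC-enriched arrays, a 9.63-fold rise (limma, adjusted p = 2.3e-06). The ETS factor gene Erg rose 3.51-fold and Lmo2, a bridging protein, 2.60-fold. All HSC-enriched arrays lay above all Lin+ arrays for these 3. The largest falls were in Ebf1 and Pax5, factors of the B lineage, at 43.2-fold and 14.6-fold, and in Ets1, which is high in lymphocytes, at 4.63-fold. B cell markers, a list that includes Ebf1 and Pax5 themselves, fell in 8 of 8, with means of 4.84 to 6.48 against 9.63 to 10.30. What part B cells have in the falls was not tested. On HSC-enriched replicates 1, 2 and 4 Ebf1 was at 3.81, 3.75 and 3.65 and Pax5 at 5.10, 5.03 and 5.07, with 5.58 and 5.98 on replicate 3, so both folds rest on values near background. The ETS factor gene Fli1, at 9.85 in both groups, and the helix-loop-helix gene Lyl1 (-0.12) did not pass.

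Among partners of the ETO family 7 of 19 rose (36.8%, against 15.5% of all genes) and 3 fell (15.8%, against 12.4%). The other 9 stayed without a call, and the median was 0.09. This list shares Lmo2, Gata1, Gfi1b, the histone deacetylases and others with the lists above. Ldb1, which holds Lmo2, Tal1 and Gata factors in 1 complex with Cbfa2t3, was 9.79, 9.55, 9.30 and 9.49 on Lin+ and 10.47, 10.43, 10.64 and 10.61 on HSC-enriched arrays. That is a 2.01-fold rise with no overlap (limma, adjusted p = 0.00013). Gfi1b, a repressor of the erythroid and megakaryocytic lines, rose 2.21-fold. Bcl6, a zinc finger repressor that binds ETO proteins, fell 4.95-fold, and the E protein gene Tcf3 fell 1.47-fold. Gata1 fell by 0.72 (limma, adjusted p = 0.037), but by 0.38 without HSC-enriched replicates 3 and 4 (adjusted p = 0.30), and the call was also lost with Lin+ replicate 2 (-0.71, adjusted p = 0.081), 3 (-0.59, 0.10) or 4 (-0.71, 0.079) or HSC-enriched replicate 3 (-0.65, 0.095) or 4 (-0.56, 0.091) left out. Hdac1 and Irf2bp2 (-0.28, adjusted p = 0.092) did not pass, though Irf2bp2 did without Lin+ replicate 4 (-0.35, 0.041).

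Known target genes of Runx1 in blood fell more often than they rose, in 10 of 22 against 5, with 7 not passing. Their median was -0.29. Those counts are 45.5% lower and 22.7% higher, against 12.4% and 15.5% of all genes. The list does not separate genes that Runx1 activates from genes that it represses. The granule enzyme genes Mpo and Elane, targets in myeloid progenitors, fell 43.7-fold and 43.2-fold. Mpo was 10.84, 11.31, 11.36 and 11.28 on Lin+ and 5.10, 5.52, 6.92 and 5.45 on HSC-enriched arrays, and Elane was at or under the guide on 3 of 4 HSC-enriched arrays. Both are also neutrophil markers, of which 13 of 14 fell, and Ebf1 is also a B cell marker. Of the targets in the megakaryocyte line, Itga2b, an integrin subunit, rose: it was 6.44, 6.04, 5.81 and 6.18 on Lin+ and 7.43, 7.73, 7.36 and 7.49 on HSC-enriched arrays (2.61-fold, limma adjusted p = 5.2e-05), and the platelet chemokine gene Pf4 rose 2.60-fold. Both stand among the megakaryocyte markers above, and the megakaryocyte targets Myl9 (-0.19), Myh10 (0.44), Alox12 (-0.15) and Nfe2 (0.04) did not pass. For Myh10 (limma, adjusted p = 0.073) the groups did not overlap. Alox12 was under the guide on every array, as were Csf2 and Il3, so these say little about a change. Cdkn1a, a cyclin-dependent kinase inhibitor, rose 2.70-fold, with HSC-enriched replicate 2 at 10.66 above 9.14 to 9.51 on the other arrays. Gfi1 (-0.39, adjusted p = 0.11) did not pass, but did without Lin+ replicate 4 (-0.51, 0.046) and without HSC-enriched replicates 3 and 4 (-0.61, 0.037).

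Target genes of Runx3 in T and NK cells were mostly lower, in 12 of 13 (92.3%, against 12.4% of all genes). None was higher at an adjusted or an unadjusted p of 0.05 (limma), and the median was -1.14. The list does not separate genes that Runx3 activates from genes that it represses. Ccl5, a chemokine, fell 14.0-fold, Il2rb, a cytokine receptor subunit, 10.9-fold and Itgal, an integrin subunit, 9.92-fold. Il2rb was at or under the guide on all 4 HSC-enriched arrays, between 4.10 and 4.55. Of the 13 genes, 7 had a mean at or under the guide in HSC-enriched cells and 1 in Lin+ cells. Their differences thus rest on values near background. With the filter at the median, 9 genes were called lower. The T and NK markers given beside Runx3 fell with them, but that list shares Cd8a, Cd4 and Il2rb with this one. Itgae (-0.30) did not pass. Cells of those lineages and the activity of Runx3 cannot be told apart by these values.

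Target genes of Runx2 in bone lay near background. Of 9 measured, 0 passed in either direction (limma), against 27.8% of all genes. At an unadjusted p under 0.05, 1 was higher and 1 lower. In Lin+ cells 7 and in HSC-enriched cells 8 had a mean at or under the guide. The collagen genes Col1a1 (5.41 ± 0.25 against 5.02 ± 0.12 in HSC-enriched) and Col1a2 (5.11 ± 0.09 against 5.46 ± 0.22, SD, n = 4) were the highest of them. Col1a1 passed with quantile normalization (-0.40, adjusted p = 0.0496), the filter at the 40th percentile (-0.39, 0.045), array weights (-0.42, 0.042) and without Lin+ replicate 3 (-0.51, 0.0076), and Col1a2 with quantile normalization (0.35, 0.045) and without HSC-enriched replicate 2 (0.42, 0.042).

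**Figure D3:**
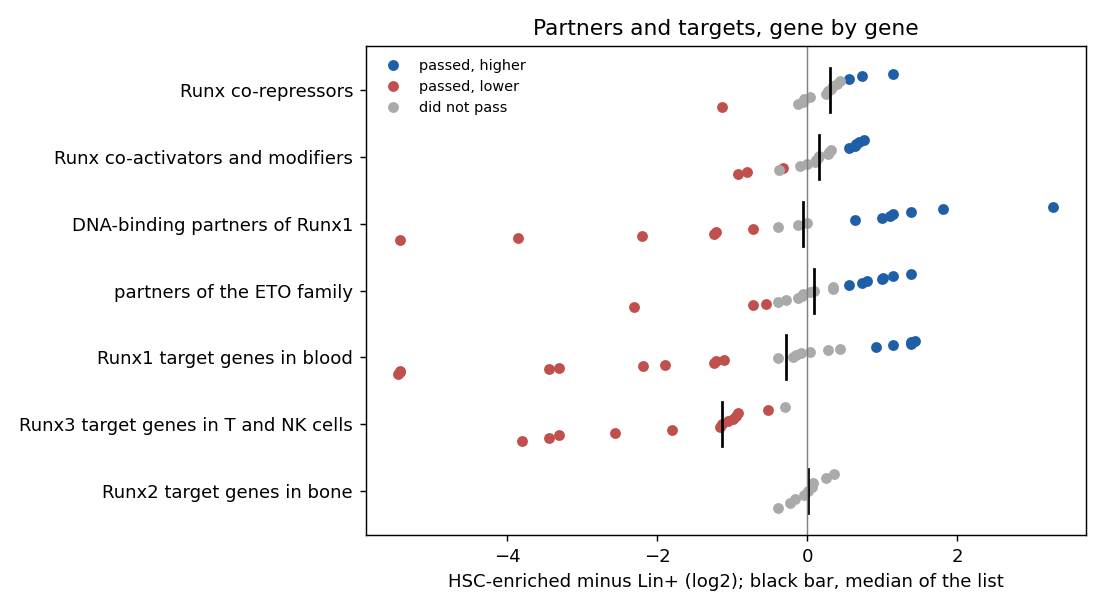
Difference between HSC-enriched and Lin+ cells (log2, horizontal axis) for every measured gene of the 7 lists; blue and red points passed higher and lower at an adjusted p of 0.05, grey points did not, and the black bar is the list's median. Targets of Runx3 lie left of 0, the bone targets lie between -0.39 and 0.35, and the partners of Runx1 spread from -5.43 to 3.27.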

How the data were processed

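RNA of the 8 samples was amplified and hybridised, per the labels' protocols, to 1-colour MouseGene ST arrays (Affymetrix), of which 2 versions are named without assigning samples. The authors deposited log2 values made with RMA and Partek, per the submitters' processing notes; tool versions, genome build and probe set definition are not stated there, and the log2 scale was read from the values, 1.66 to 13.13. Of 24973 probe sets, 24015 had 1 symbol, 0 several and 958 none; 23922 symbols were updated by Entrez gene ID through RefSeq (GRCm38.p6), and the brightest probe set of a symbol was kept. Probe sets that the table of probe names does not list were left unnamed whatever their ID; Runx2 is therefore not reported here.

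Differences are HSC-enriched minus Lin+, from limma 3.58.1 (R 4.3.3) without covariates, adjusted by Benjamini-Hochberg over 24011 genes; the fit was tested on simulated data. Alternatives were centring, quantile normalization, 2 filters, a variance trend, array weights, the replicate block and arrays left out. Genes and lists were chosen with earlier results of these data known. Named are all measured members and, in each list, up to 3 passing genes per direction and the 2 brightest not passing. Exact permutation tests used scipy 1.17.1 and figures matplotlib 3.10.9.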

Additional observations from a re-analysis of the deposited data

Results flagged for a closer look

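Of 94 groups of 4 arrays, over 47 genes, 9 had an array far from the others by Dixon's criterion, where chance flags about 1 in 20. Lin+ replicate 4 was high for Cbfa2t2, at 7.58 against 6.92 to 7.02 on the other 3 Lin+ arrays, and low for Gfi1, at 6.12 against 6.56 to 6.60. Lin+ replicate 1 was high for Hdac1 (9.60 against 9.21 to 9.27), Ets1 (9.08 against 8.85 to 8.87) and Tcf3 (9.66 against 9.07 to 9.17), and low for Mpo (10.84 against 11.28 to 11.36). HSC-enriched replicate 3 was high for the B cell factor genes Pax5 (5.98 against 5.03 to 5.10) and Ebf1 (5.58 against 3.65 to 3.81). HSC-enriched replicate 1 was low for Il2rb, at 4.10 against 4.50 to 4.55, values that all lie under the guide to background.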

How the results depend on the processing

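Runx1, Cbfa2t3 and Runx1t1 passed under all 16 alternatives, with differences of 0.68 to 0.83, 0.95 to 1.08 and 0.63 to 0.79, and Cbfb passed under none (0.03 to 0.16). Runx3 did not pass with median centring (0.40) or without HSC-enriched replicates 3 and 4 (0.44), and ranged from 0.32 to 0.49 with 1 array left out. Cbfa2t2 ranged from 0.50 to 0.72 with 1 array left out. Rising co-repressor genes numbered 5 with quantile normalization and with both filters, and 3 to 5 with 1 array left out. Of the bone targets 1 rose and 1 fell with quantile normalization, 1 fell with the filter at the 40th percentile and with array weights, and 0 to 1 in each direction with 1 array left out. The cause was not tested. With the replicate block the differences were 0.74 for Runx1, 0.41 for Runx3, 0.57 for Cbfa2t2, 0.99 for Cbfa2t3, 0.70 for Runx1t1 and 0.08 for Cbfb, and no call of these 6 changed; Ep300 and Gata1 lost theirs (adjusted p = 0.11 and 0.075). Over all genes same-numbered arrays did not deviate together (correlations of -0.152, 0.059, 0.026 and -0.102), and the main fit did not take the numbers as pairs. Such correlations do not show that same-numbered samples were unrelated, and the labels do not say. Over all genes the block gave 3379 higher and 2743 lower genes against 3716 and 2969 without it. Of 41 list genes named, 8 lost or gained a call under some alternative and none reversed. For the tests of relatives the block and the fits with 1 array left out cannot reach the threshold whatever the values, so they say nothing about stability. The pairs with Runx2 were not run.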

Other observations

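Of 8 measured markers of megakaryocytes and platelets 6 rose in the stem-cell-enriched fraction (75.0%, against 15.5% of all genes). None fell, and the median was 1.37. The receptor subunit gene Gp1bb (0.27), near background, and the chemokine gene Ppbp (-0.02) did not pass. Gp9, a subunit of the platelet receptor for von Willebrand factor, was 6.11, 7.15, 7.68 and 6.95 on Lin+ and 9.29, 9.21, 8.96 and 8.97 on HSC-enriched arrays, a 4.39-fold rise with no overlap (limma, adjusted p = 0.00018).

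No member reached the difference of 1 (log2) set for naming genes of like pattern, so the following were chosen after values were seen, for Runx1 and Cbfa2t3. Over the 8 arrays the genes with the highest Pearson correlation with Runx1 were Pde9a (0.994), Pde4b (0.993) and Chchd6 (0.991), and with Cbfa2t3 Ttc27 (0.998), Atic (0.997) and Kars (0.996). The arrays form 2 groups, which sets much of such a correlation: 332 genes exceeded 0.95 with Runx1 and 770 with Cbfa2t3.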
